A study of Caenorhabditis elegans with 2 samples.

Results

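The genes cmk-1 and lips-10 of the nematode Caenorhabditis elegans each held, in an intron, one of the strongest peaks recovered with an EGFP fusion of F26F4.8 in L4 larvae. They are 2 of the 19973 protein-coding genes on the 6 nuclear chromosomes. They were chosen from the measured signal, as the host genes of the 2 strongest listed peaks with no annotated RNA gene within 200 bp. Counted as RNA genes throughout were those of the classes tRNA, pseudogenic tRNA, snoRNA, snRNA, rRNA, miRNA, ncRNA and lincRNA. Any other annotated class of RNA was not included. A listed peak is one in the authors' thresholded list of peaks called across replicates, and a ranked peak is any peak in the longer list from which it was taken. The members were thus the 19 ranked peaks with a summit inside either gene, of 109990 ranked peaks in all, and 2 of these 19 were among the 978 listed peaks. Because signal chose the genes, their signals and ranks are a description and no test was made.

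Chromatin immunoprecipitation followed by sequencing was done with an anti-GFP antibody on sonicated chromatin from whole larvae 48 hours after release from L1 starvation. All samples formed 1 group of 2 biological replicates of strain OP776, which carries the transgene wgIs776, a fosmid with F26F4.8 fused to TY1, EGFP and 3xFLAG together with unc-119(+), in an unc-119(tm4063) background. The tagged copy was therefore additional to the genomic gene and came from 1 strain, and no cell type was separated. No untagged or mock-precipitated group was analysed here, so every value is a peak's own enrichment and not a difference between conditions. Read numbers were not among the sources used here, and the depth behind each value is unknown.

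cmk-1 encodes calcium/calmodulin-dependent protein kinase I, which acts in thermosensory and other neurons, and lips-10 belongs to a class of genes named for their similarity to lipases. Small RNA genes with promoters of their own can lie inside introns of protein-coding genes. In tRNA genes RNA polymerase III is recruited through an A box and a B box that lie inside the transcribed sequence, both recognised by the factor TFIIIC, and transcription ends at a run of T in the strand that reads like the RNA. F26F4.8 encodes a protein annotated with a C2H2-type zinc finger, a fold that often binds DNA. Tandem repeats, in which a short unit recurs head to tail, are a separate kind of intron sequence.

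The 2 strong peaks differed in the sequence beneath them. The one in cmk-1 lay in a GC-rich tandem array with no A or B box. The one in lips-10 held an A box and, when 2 mismatches were allowed, a B box after it. A run of T followed, just beyond the edge of the pooled peak but inside the wider peak of replicate 2. The first sequence is the whole listed peak in cmk-1, IV:1831354-1831449 on the plus strand of ce11 (WBcel235), which is also the strand of the gene. Capitals mark the exact copies of a 12-base core that recurs through the intron. The lines after it are the units in which that core recurs, with the core again in capitals.
cmk-1 peak: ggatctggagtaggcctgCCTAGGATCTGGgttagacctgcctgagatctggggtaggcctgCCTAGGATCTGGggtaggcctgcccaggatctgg
18-base unit: CCTAGGATCTGGggtagg
22-base unit: CCTAGGATCTGGggtaggcctg

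The lips-10 sequence is the 90-bp element at II:8441616-8441705 on the minus strand, opposite to the gene, where the first capitals are the A box match and the second capitals the B box match. It runs from 8 bases before the A box to 27 bases after the B box. The lines after it are the related elements found in the genome by sequence similarity. They are shown because most of them also carried a peak.
lips-10, II:8441616-8441705 (minus): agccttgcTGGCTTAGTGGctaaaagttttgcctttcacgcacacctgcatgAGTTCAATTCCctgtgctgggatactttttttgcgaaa
near C14C11.7, V:5667448-5667537 (minus): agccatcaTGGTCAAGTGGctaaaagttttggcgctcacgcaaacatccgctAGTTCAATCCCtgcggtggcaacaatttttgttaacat
near F09E5.7, II:5353797-5353886 (minus): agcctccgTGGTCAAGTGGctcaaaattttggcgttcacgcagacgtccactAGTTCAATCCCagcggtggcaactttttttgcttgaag
near vps-37, V:5592075-5592163 (plus): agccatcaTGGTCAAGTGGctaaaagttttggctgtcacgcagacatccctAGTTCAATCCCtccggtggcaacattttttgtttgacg
in C32D5.12, II:6358350-6358439 (minus): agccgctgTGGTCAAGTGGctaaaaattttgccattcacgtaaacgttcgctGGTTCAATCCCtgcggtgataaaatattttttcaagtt
in hst-3.1, II:6168908-6168997 (plus): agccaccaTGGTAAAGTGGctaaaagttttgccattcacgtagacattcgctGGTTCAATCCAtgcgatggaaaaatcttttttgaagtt

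cmk-1 (WBGene00000553) lies on the plus strand at IV:1824481-1834247, spans 9767 bp and has 7 exons in the gene model used. Its listed peak had a summit at position 1831384, in intron 2, 6903 bp downstream of the start of the gene. The nearest transcription start site (TSS) of a protein-coding gene was that of ccm-2, 3244 bp away, which encodes a homologue of the scaffold protein CCM2. The nearest annotated RNA gene was K07A9.5, at 6587 bp. The signal, the peak caller's measure of enrichment in arbitrary units, was 351 in the pooled reads, 234 in replicate 1 and 112 in replicate 2. Signals in the lists of pooled reads and of single replicates are not on a stated common scale, so values are ordered only within a list.

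Within the pooled list the cmk-1 peak ranked 3 of the 978 listed peaks, and it was the strongest of the 526 with no annotated RNA gene within 200 bp. The median signal was 87.9 over all listed peaks and 78.8 over those 526, of which the cmk-1 peak was 4.46 times. For comparison, the medians were 109 at the 332 listed peaks with a tRNA gene within 200 bp and 183 at the 47 with a snoRNA gene but no tRNA gene. The irreproducible discovery rate (IDR), an estimate of the share of calls at least this strong that would not repeat between replicates, was 5.27e-05 for this peak. In the ranked list it was number 25 by signal, so most of the peaks with a higher signal were not in the thresholded list.

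The replicates differed more at cmk-1 than at most peaks. The ratio of the signal in replicate 1 to that in replicate 2 was 2.10, whereas the median over the 954 listed peaks with a value in both was 1.13 and the 5th to 95th percentiles ran from 0.738 to 1.80. A higher ratio was found at 11 of those 954 peaks. The peak was listed in each replicate's own thresholded list, with rank 2 in replicate 1 and rank 23 in replicate 2. The summit was at the same base in replicate 2 as in the pooled reads and 5 bp further on in replicate 1.

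lips-10 (WBGene00008803) lies on the plus strand at II:8439168-8442151, spans 2984 bp and has 4 exons. Its listed peak, II:8441631-8441786, had a summit at position 8441713 in intron 3, an intron of 198 bp, 2545 bp from the start of the gene. The nearest TSS was that of eif-3.G, which encodes a subunit of translation initiation factor eIF3, at 1054 bp. The nearest annotated RNA gene was F22B5.11, at 9837 bp. The signal was 270 in the pooled reads, 150 in replicate 1 and 118 in replicate 2.

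The lips-10 peak ranked 14 among the 978 listed peaks and second among the 526 without an annotated RNA gene nearby, with an IDR of 7.65e-05. It was listed in both replicates, at rank 11 in replicate 1 and rank 21 in replicate 2. The ratio between its replicates was 1.27, a value that 311 of the 954 peaks exceeded, so the replicates lay closer together here than at cmk-1. The order of the 2 genes also depended on the replicate: cmk-1 was the higher in the pooled reads and in replicate 1, and lips-10 in replicate 2.

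**Figure D1:**
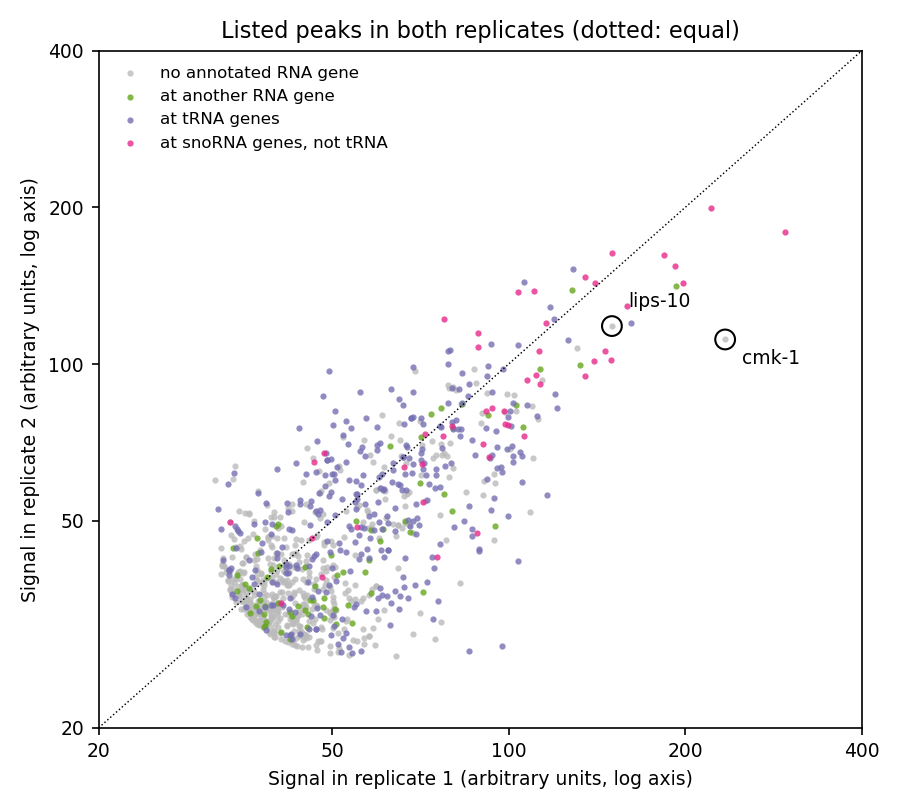
Signal of each listed peak with a value in both replicates, replicate 1 on the horizontal and replicate 2 on the vertical axis, both logarithmic and in arbitrary units. Points are coloured by the kind of annotated RNA gene within 200 bp of the summit, and the circles mark the peaks in lips-10 (150 and 118) and cmk-1 (234 and 112), of which the latter lies further below the dotted line of equality.

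Each gene held only 1 listed peak, although many weaker peaks were ranked along it. In cmk-1 there were 15 ranked peaks in the pooled list, 10 with a summit in an intron and 5 in an exon, and 1 was listed. In lips-10 there were 4, 3 in introns and 1 in an exon, and 1 was listed. Over the genome 0.889% of ranked peaks were listed, and 3.21% of the protein-coding genes with a ranked summit inside them also held a listed one. Narrowed to listed peaks with no annotated RNA gene within 200 bp, that share of genes was 1.94%. These shares are given as background only, since the listed peaks decided which genes were chosen.

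The other 14 peaks of cmk-1 had pooled signals from 3.40 to 51.1, with a median of 26.9, so the intron 2 peak was 6.88 times the next highest. That next peak lay in intron 1, a 5862-bp intron, 1970 bp from the start of the gene. A peak of 36.3 lay 120 bp downstream of the start of cmk-1, in exon 1. The 3 other peaks of lips-10 had signals of 15.2 in exon 1, 24.1 in intron 1 and 30.8 in intron 2, and the listed peak was 8.75 times the highest of them. The median of all ranked peaks was 23.8, so the remaining peaks of both genes were of about the usual size. Their number was also near the usual one, with 1.54 ranked summits per kb in cmk-1 and 1.34 in lips-10, against 1.18 over all protein-coding genes.

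In the lists of single replicates cmk-1 held 7 ranked peaks in replicate 1 and 9 in replicate 2, and lips-10 held 3 and 1. In each of these the same intronic peak was the only one listed, where 0.585% of ranked peaks in replicate 1 and 0.61% in replicate 2 were listed. Genes with a ranked summit that also held a listed one made up 1.3% and 1.16%. The highest of the other peaks in cmk-1 reached 28.5 in replicate 1 and 24.7 in replicate 2, and in lips-10 19.2 in replicate 1. In replicate 2 no peak other than the listed one was ranked in lips-10. The second list of pooled reads, in which 0.875% of ranked peaks were listed, held 14 peaks in cmk-1 and 4 in lips-10, again with 1 listed in each. In that list 3.18% of genes with a ranked summit held a listed one.

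**Figure D2:**
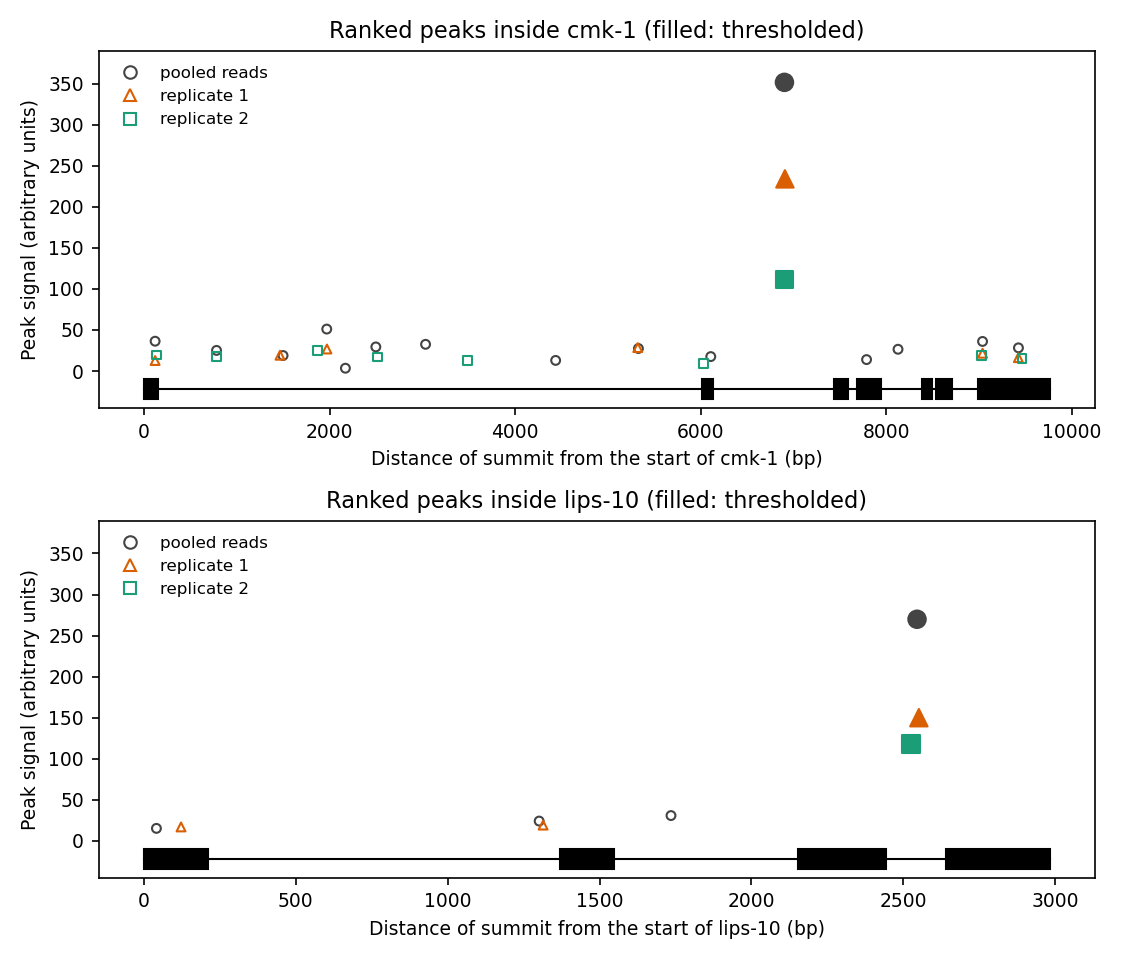
Signal (vertical axis, arbitrary units) of every ranked peak with a summit in cmk-1 (top) or lips-10 (bottom) by distance from the start of the gene (bp), for the pooled reads and each replicate. Black boxes are exons and large filled symbols are thresholded peaks; in each gene a single intronic position stands out in all 3 lists, at 351, 234 and 112 in cmk-1 and at 270, 150 and 118 in lips-10.

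Both listed peaks were narrow in the pooled reads and in replicate 1, but not in replicate 2. Of all ranked peaks in the pooled list 99.9% had the same width, 264 bp, and 37 of the 978 listed peaks (3.78%) were narrower. The cmk-1 peak was 96 bp wide there and the lips-10 peak 156 bp. Such widths were usual among the strongest listed peaks, and the members were chosen by signal, so narrowness was not particular to them. Of the peaks just outside the rule, those near cdc-25.2 and in zip-7 were 86 and 67 bp wide. The one near WBGene00020828 had the usual 264 bp. In replicate 1 both were narrower than the usual 256 bp of that list, the cmk-1 peak at 71 bp, and in replicate 2 both had the usual width of 244 bp. What sets the width is not given in the sources used here.

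The sequence under the cmk-1 summit was a tandem array. Within 100 bp of the summit 61.7% of bases were G or C, a share that 16 of the 978 listed peaks exceeded; the median was 46.3% at listed peaks and 38.8% at all ranked peaks. Self-match, the share of bases equal to the base a fixed number of positions further on, was highest at a shift of 22 bp, where it was 68.7%, and it was 66.2% at 44 bp and 45.4% at 18 bp. None of the window was soft-masked as repeat in the reference sequence. The repeat was therefore found from the sequence itself, by a search chosen after the sequence had been seen.

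The 12-base core shown in capitals above occurred 26 times in intron 2, in each case on the strand of the gene, and 2 times in the rest of the genome. The copies spanned IV:1831038-1831679, which is 642 bp or 49.3% of the intron. Successive copies began 18 bp apart at 12 places, 22 bp at 8, 44 bp at 4 and 62 bp at 1. All 12 of the 18-base units were identical to the unit shown, and 3 of the 8 units of 22 bases were identical to theirs. The summit lay inside the array, 346 bp from its first base and 295 bp from its last, and the listed peak contained 2 of the 26 exact copies. GC content rose at the edges of the array, measured in stretches reaching 50 bp to either side, from 38.6% at 400 bp upstream of the summit to 63.4% at 300 bp upstream, and fell again to 37.6% at 400 bp downstream. Nearly identical units can receive reads from one another when reads are aligned; how such reads were placed is not given in the sources used here, and its part in the signal was not tested.

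**Figure D3:**
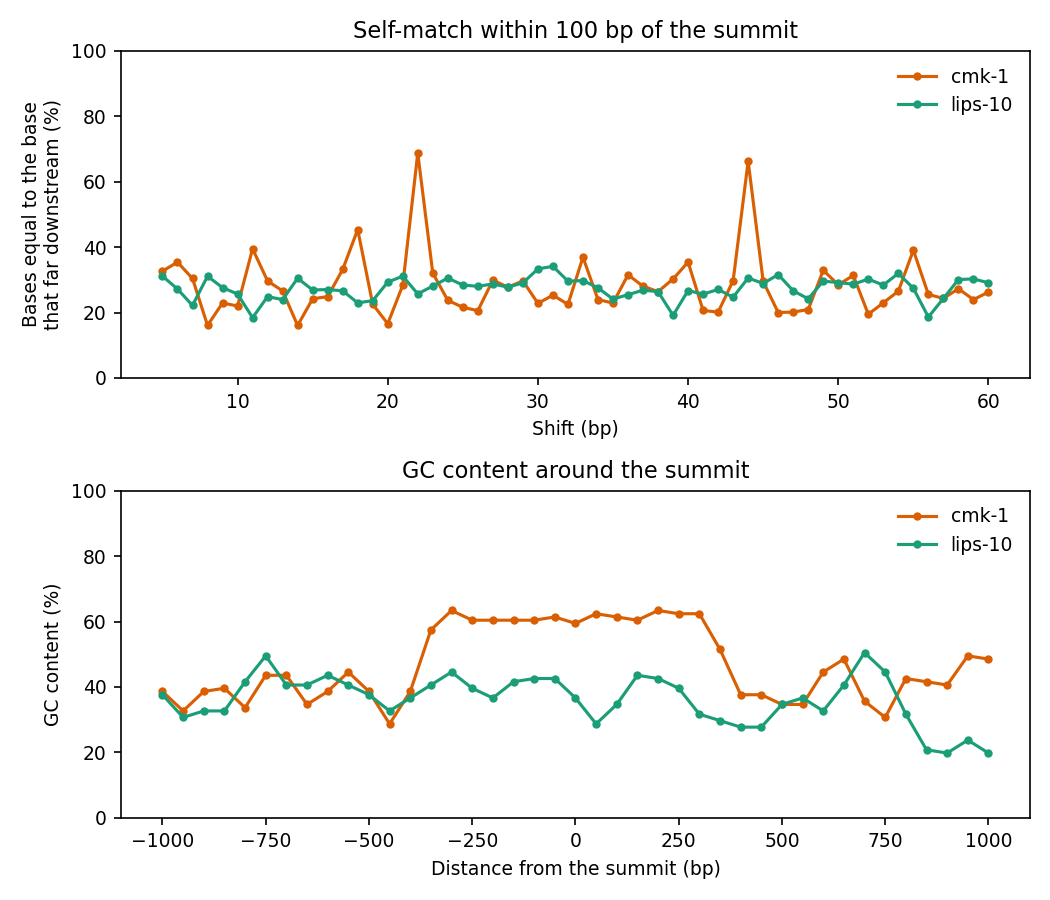
Top, share of bases within 100 bp of each summit that equal the base a given shift further on (%, vertical axis) by that shift (bp); bottom, GC content of stretches reaching 50 bp to either side (%) by distance from the summit (bp). For cmk-1 the self-match has maxima at 22 bp (68.7%) and 44 bp (66.2%) and GC content forms a plateau around the summit, while lips-10 has neither feature.

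Sequences like the window around the cmk-1 summit were found at 4 other places with at least 50 bp aligned, and at 6 with at least 30 bp. All 4 of the longer copies had a ranked peak within 100 bp, and 1 of them was listed. Ranked summits were dense, at 1.18 per kb over all protein-coding genes, and 0.889% of ranked peaks were listed. The share of like stretches of the genome with a ranked peak was not computed, so nothing is read from these counts. The listed one, in an intron of Y47H9B.2 on chromosome I, had a signal of 66.3 (36.2 in replicate 1 and 32.7 in replicate 2) and ranked 891 of 978. The others had pooled signals of 58.5 at an intergenic copy at IV:15854133-15854396, 45.5 in an intron of sssh-1 on chromosome X and 32.6 in an intron of neto-1 on chromosome I. No ranked peak lay at the 2 shorter copies. The cmk-1 signal was above those of its copies, an order that its choice by signal fixed for the listed copy. The 4 longer copies matched at 75.5% to 81.0% of the aligned bases.

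Tandem repeats of this strength were found at a minority of the listed peaks. A self-match of at least 60% at some shift from 5 to 60 bp was present at 61 of the 526 listed peaks with no annotated RNA gene nearby (11.6%). It was present at 3 of the 73 at another kind of RNA gene (4.11%) and at 2.01% of the ranked peaks that were not listed. None of the 332 peaks at tRNA genes and none of the 47 at snoRNA genes had it. Among the 61, cmk-1 had the highest signal, as its choice by signal required. The next highest was 188 and the median was 85.2. Their best shifts ran from 6 to 60 bp and their GC content from 22.9% to 74.6%, so they did not form 1 repeat family with cmk-1. The ratio between the replicates had a median of 1.17 over the 61, and 2 of them had a ratio above that of cmk-1.

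The sequence under the lips-10 summit was of another kind. Its GC content within 100 bp of the summit was 35.8%, below that of 933 of the 978 listed peaks, 21.9% of the bases were soft-masked, and its best self-match was 34.1%. The A box, matched without a mismatch, lay on the minus strand at II:8441687-8441697, with its centre 21 bp from the pooled summit. A search for either box, on both strands and with at most 1 mismatch, found this A box and nothing else at lips-10, and no box at cmk-1. The boxes searched for were the consensus A box and B box of tRNA genes. With at most 1 mismatch, an A or B box lay within 100 bp of the summit at 21.1% of the 526 listed peaks with no annotated RNA gene nearby, 95.2% of those at tRNA genes, 49.5% of all listed peaks and 6.92% of all ranked peaks. At cmk-1 the count was 0 also with 2 mismatches or a window of 200 bp.

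With 2 mismatches allowed, a B box appeared at lips-10 at II:8441643-8441653, on the same strand as the A box and 44 bp from it, start to start. After the B box, still on that strand, came a run of 7 T, which lay outside the listed pooled peak. The listed peak of replicate 2, II:8441570-8441813, held the run and the whole element. Runs of T are frequent in this genome, and a run of at least 7 on either strand lay within 100 bp of 28.8% of all ranked summits. The element of 90 bp that contains the boxes and the T run overlapped 75 bp of the listed pooled peak. The pooled summit lay 8 bp beyond the 5′ end of the element. The summit of replicate 1, at 8441719, also lay beyond that end. That of replicate 2, at 8441692, lay inside the element, within the A box match. Among 612 tRNA genes and 209 pseudogenic tRNA genes, the annotated gene most similar to the element was the pseudogenic K10B2.t1, identical at 57 of 77 aligned bases (74.0%). Genes were ordered by alignment score; by that score 5 further pseudogenic tRNA genes came next, with identities of 65.3% to 69.4%, and then genes for tRNA-Glu and tRNA-Gly, whose identities of 67.6% to 68.5% lay within the same range.

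The order A box, then B box on 1 strand, with starts 20 to 80 bp apart and at most 2 mismatches in each, was then counted at all peaks, a search chosen after the lips-10 sequence had been seen. It was present in 295 of 332 cases at tRNA genes (88.9%) and in 30 of the 47 at snoRNA genes (63.8%). At listed peaks near another kind of RNA gene it was present in 14 of 73 (19.2%). With no annotated RNA gene it was present in 87 of the 526 (16.5%), and in 2.29% of ranked peaks that were not listed. Requiring in addition a run of at least 4 T within 27 bases after the B box left 291 (87.7%) at tRNA genes. It left 2 (4.26%) at snoRNA genes and 7 (9.59%) at another kind of RNA gene. At peaks with no annotated RNA gene it left 64 (12.2%), and 0.904% of the unlisted peaks. Of the 87 peaks, lips-10 had the highest signal, as its choice by signal required, and the median was 103. The distance between the starts of the boxes had a median of 44 bp both in these 87 and at the 295 tRNA peaks, the value found at lips-10. For the other groups, the unlisted peaks included, that distance was not computed, so there is no background for this value.

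**Figure D4:**
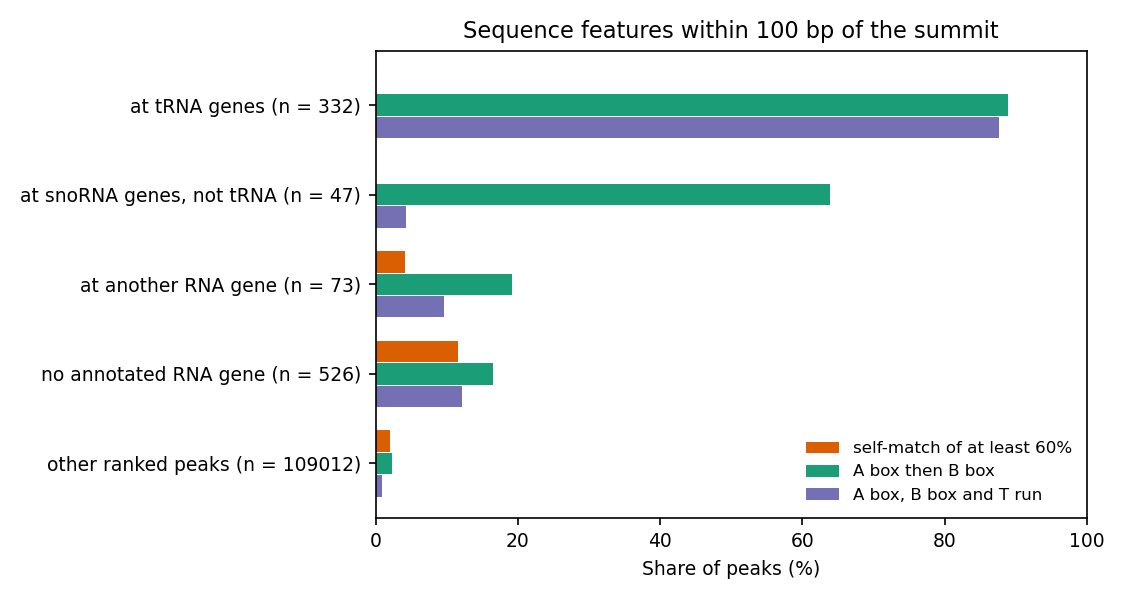
Share of peaks (%, horizontal axis) with a self-match of at least 60%, with an A box followed by a B box, and with these boxes followed by a run of at least 4 T, for listed peaks by the kind of RNA gene within 200 bp of the summit and for ranked peaks that were not listed. The feature seen at cmk-1 was found at 11.6% of listed peaks with no annotated RNA gene and at none of those at tRNA genes; the boxes seen at lips-10 were found at 16.5% and 88.9%.

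The lips-10 element had 5 relatives of partly similar sequence in the genome. A search with the sequence within 100 bp of the lips-10 summit found 4 of them, with at least 50 bp aligned. The last, in hst-3.1, was found in a second search (expectation value at most 0.001) with the elements of lips-10 and of those 4, and at that limit the lips-10 element alone matched 2 of the 5. All 6 loci had an A box with at most 1 mismatch and a B box with at most 2. The starts of the boxes were 43 or 44 bp apart, and a run of at least 5 T came after the B box. At the 5 loci with 90-bp elements 46 of 90 positions were identical in all, and the other elements were identical to that of lips-10 at 54 to 58 positions. Of the 6 loci 1 overlapped an annotated RNA gene, namely K10B2.t1.

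Of the 6 loci 4 had a listed peak and 5 a ranked peak in the pooled list, the summit within 100 bp of the element. These counts include lips-10, which was chosen for the signal of its listed peak. The share of like stretches of the genome with a peak was not computed. lips-10 was the highest, at 270, which its choice by signal fixed among the listed loci. The locus near C14C11.7 had a pooled signal of 177, with 98.4 in replicate 1 and 81.1 in replicate 2. The locus near F09E5.7 had 162, with 79.4 and 70.6. The locus near vps-37, a subunit of the ESCRT-I sorting complex, had 122, with 67.5 and 56.7. These 3 are intergenic, and each was listed in both replicates, as lips-10 was.

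At the remaining 2 loci no peak was listed. The element in an intron of C32D5.12, which is K10B2.t1, had a ranked pooled peak of 65.1 and a ranked peak of 34.6 in replicate 2, and none in replicate 1. The element in an intron of hst-3.1, which encodes a heparan sulfate sulfotransferase, had no ranked pooled peak, and a ranked peak of 10.8 in replicate 2 alone. Both of these B boxes begin with G and the 4 at the listed loci begin with A. The B box is not the only place where the sequences split in this way. The base after cacg, between the boxes, is c at the listed loci and t at the 2 others. The B box in C32D5.12 had 1 mismatch and that in lips-10 had 2. The order of the 4 listed loci was the same in the pooled reads and in each replicate. With 1 value per locus and replicate, and loci grouped after their values had been seen, these differences were not tested.

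**Figure D5:**
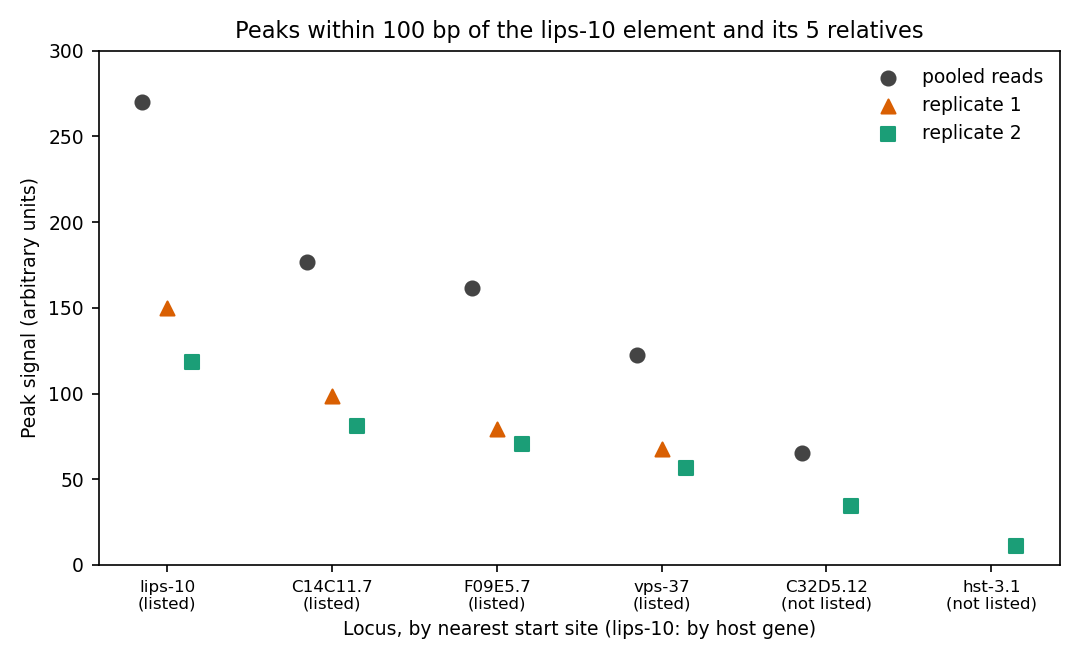
Highest signal of a ranked peak within 100 bp of each of the 6 loci, that of the lips-10 element and its 5 relatives (vertical axis, arbitrary units) in the pooled reads and in each replicate; loci are named by the host gene or the nearest start site, and no symbol is drawn where no peak was ranked. The 4 listed loci lie between 122 and 270 in the pooled reads, and the 2 others reach at most 65.1.

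Just outside the rule were the next 3 listed peaks with no annotated RNA gene nearby. A peak at V:1561329-1561414, intergenic and 5690 bp from the TSS of cdc-25.2, which encodes a CDC25 phosphatase, had a signal of 234.6 (131 in replicate 1 and 108 in replicate 2). A peak at IV:16503786-16503852, in an intron of zip-7, a gene for a bZIP transcription factor, had 199.98 (114 and 93.2). A peak at X:1837750-1838013, intergenic and nearest to WBGene00020828, had 199 (112 and 78.3). With 2 mismatches allowed in each box, all 3 had an A box followed by a B box within 100 bp of the summit, as lips-10 did and cmk-1 did not. With at most 1 mismatch none of the 3 had a B box, and the zip-7 peak had no A box either. None had a self-match of 60%. Just inside were lips-10 at 270 and cmk-1 at 351.

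Likeness of pattern was measured as the distance between log2 signals over the 2 replicates, among the 142 listed intronic peaks with no annotated RNA gene nearby and a value in both replicates, the members included. The peak nearest to cmk-1 was that in lips-10 (distance 0.65), then zip-7 (1.07) and C29E4.15 (1.25). The nearest to lips-10 was zip-7 (0.53), then cmk-1 (0.65) and C29E4.15 (0.71). The distances are on a log2 scale and follow mainly from the height of the peaks.

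The other genes of the pathway or class of each member are given as a description, since the members were chosen for their listed peaks and most genes hold none. Of 14 genes of calcium and calmodulin signalling 13 had a ranked summit inside and 1, cmk-1, a listed one. Over all protein-coding genes 80.9% had a ranked and 2.60% a listed summit inside. ckk-1, which encodes the kinase that phosphorylates cmk-1's product, reached 68.8, and crh-1, the CREB transcription factor downstream of it, reached 61.8. The calcineurin subunit gene tax-6 reached 55.7 and its partner cnb-1 22.4; the death-associated kinase gene dapk-1 reached 53.4, the calmodulin gene cmd-1 46.1, the CaM kinase II gene unc-43 45.9 and the CREB coactivator gene crtc-1 41.1. The calcium sensor genes ncs-1 (31.6), cal-1 (30.1), cal-4 (20.2) and cal-2 (13.2) were lower, and cal-3 held no ranked summit.

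Of the 14 genes named lips in the annotation 10 had a ranked summit inside and 1, lips-10, a listed one, beside the 80.9% and 2.60% of all protein-coding genes. The highest signals after lips-10 were 54.7 in lips-9 and 45.2 in lips-15, both on chromosome II. The other members with a ranked summit reached 20.3 to 41.2, and lips-2, lips-11, lips-12 and lips-13 held none. That no unchosen gene of either list held a listed summit is near what the share of all genes gives, and nothing is read from it.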

How the data were processed

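ChIP-seq peak lists of 2 biological replicates were used, grouped and numbered as the labels number them. The authors' deposited lists are on ce11, per the file records; for the peak caller, the aligner and read numbers, the sources used here give nothing. Every ranked peak ended inside its WBcel235 chromosome. The deposited signal is the caller's enrichment per peak, in arbitrary units, used only to describe and rank. The deposited −log10 value is that of the global IDR, which the deposited score follows, per the records of output types and the values. Of 4 ranked lists, 2 are of pooled reads and 1 of each replicate, and the one pairing both replicates was the main list. Signals per replicate come from each replicate's own ranked list.

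Peaks were assigned to genes by summit (Ensembl release 115). Sequences came from the RefSeq genome of WBcel235. Similar sequences were found with BLAST 2.17.0 (word size 7) and the remainder computed in Python 3.11.15. The box and repeat searches were tested on simulated sequences with planted repeats and planted boxes without mismatches. Boxes with mismatches were not planted. Named genes were the members, genes with the nearest TSS, the 3 peaks just outside the rule, the 3 nearest in pattern, and a calcium/calmodulin and a lipase list. Members and lists were chosen with earlier results of these data known, so no test was made. Alternatives were the other pooled list, each replicate alone, a stricter IDR, and other windows, distances, mismatches and aligned lengths.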

Additional observations from a re-analysis of the deposited data

How the results depend on the processing

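Signals and ranks depended on which replicate was kept. Leaving out each replicate in turn gave the cmk-1 peak a signal of 112 to 234 (main 351) and a rank of 2 to 23, the rank of 23 being that without replicate 1. It gave the lips-10 peak a signal of 118 to 150 (main 270) and a rank of 11 to 21; the lower signals come from other lists, with no common scale stated. Without replicate 1 the 2 peaks also changed places among peaks with no annotated RNA gene. Each gene held 1 listed peak under each thresholded list and with a global IDR of at most 0.001. The B box at lips-10, and with it the order of boxes, was found with 2 mismatches and not with 1. At least 80 bp aligned left 2 of the 4 copies found from the lips-10 window. Of 51 alternative values, 38 stayed the same within the limits used and 13 moved. For signals and ranks that limit was the standard deviation between the 2 replicates. Both peaks had identical signals in the 2 pooled lists, so that alternative adds nothing for them. Some other values could not have moved either, so the count of 38 is no measure of robustness. Both peaks lie over 1000 bp from an RNA gene, so larger distances could not change their ranks. Their IDRs already met the stricter limit. Fewer mismatches or a smaller window could not add boxes at cmk-1. The change of places without replicate 1 counts among the values that moved. No paired analysis was possible because there was 1 group and no test. Unknown read numbers limit how firmly a peak that was not ranked in 1 replicate can be read.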
